A study of Mus musculus with 6 samples.

Results

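The 10 genes described here are RNA markers of macrophages, read in cultures of mouse stem cells. They are Emr1 (the older name of Adgre1), Csf1r, C1qa, C1qb, C1qc, Tyrobp, Ctss, Ptprc, Laptm5 and Cd53, out of 37620 genes counted in each library. They were chosen as macrophage genes with results of these same libraries in view: they were selected on their levels in ESC, NPC and Phc1-KO. Those levels are given as a description, with no test. All 10 had enough reads to pass the low-count filter.

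RNA was sequenced from 3 groups of mouse cells of the J1 embryonic stem cell line, with 2 libraries in each. The first was wild-type embryonic stem cells (ESC). The second was wild-type neural progenitor cells (NPC), made from J1 ESC by differentiation in culture. The third was cells labelled Phc1-KO, with the genotype Phc1-/-, also derived from J1 ESC. Phc1 encodes a Polyhomeotic subunit of Polycomb repressive complex 1, which silences developmental genes. Per the labels, ESC were grown with LIF and serum on a layer of mouse embryonic fibroblasts whose division had been stopped with mitomycin C, and the feeders were removed before use. For Phc1-KO the study's title and design say ESC, whereas the cell type entry says NPC. Neither the deleted part of Phc1 nor the number of clones is stated in those labels.

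Each library held 15226214 to 21893821 reads in genes. Of all counted entries, gene counts and closing tallies together, 68.5% to 73.8% were given to no gene. Whether a read aligned to more than 1 place was tallied only once is not stated, so this may not be a share of reads. The ESC pair differed by 1.98% beyond counting noise, the NPC pair by 27.5% and the Phc1-KO pair by 18.1%. The labels call the libraries of a group biological replicates without saying how the cultures were separated, so p-values measure the spread between these libraries, which may be technical. Phc1 (ENSMUSG00000040669) stood at 459.7 and 460.5 counts per 1000000 library counts (CPM) in ESC 1 and 2. NPC stood at 40.8 and 34.6 CPM and the libraries labelled Phc1-KO at 326.3 and 267.5 CPM, which held 5529 or more counts each. Gene counts do not show which exons those reads came from. Log CPM across genes, a description since genes do not stand for replicates, gave a Pearson's r of 0.962 to 0.963 for Phc1-KO with ESC and of 0.766 to 0.788 for Phc1-KO with NPC. Summed ESC markers were at 2136 to 2555 CPM in Phc1-KO, 2184 to 2203 CPM in ESC and 12.03 to 14.03 CPM in NPC. Summed NPC markers were at 183 to 203 CPM in Phc1-KO, 208 to 218 CPM in ESC and 1563 to 3456 CPM in NPC. By these markers the RNA of the Phc1-KO libraries goes with the ESC label of the title and not with their cell type entry.

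Macrophages are phagocytes of the blood lineage that live in nearly every tissue, including the embryo. The receptor encoded by Csf1r binds the growth factors CSF1 and IL-34 and keeps macrophages alive. C1qa, C1qb and C1qc encode the chains of C1q, the first component of the complement cascade, which tissue macrophages make. Many macrophage genes are switched on by the transcription factor PU.1, a member of the ETS family that binds purine-rich DNA around a GGAA core.

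Promoters are shown for 4 genes, set in pairs. The pair C1qc and Ctss was low in Phc1-KO, at 3.996% and 13.8% of the ESC mean. The pair Laptm5 and Cd53 was not. Each sequence runs 5′ to 3′ along the gene's strand, from 250 bases before the annotated start through the first 30 bases of the transcript. The sequences are from RefSeq on GRCm38.p6, at chr4:136892885-136893164 (minus strand), chr3:95526536-95526815 (plus strand), chr4:130913066-130913345 (plus strand) and chr3:106790120-106790399 (minus strand). Capitals mark GAGGAA, the purine-rich core of a PU.1 site, or its reverse complement TTCCTC.
C1qc: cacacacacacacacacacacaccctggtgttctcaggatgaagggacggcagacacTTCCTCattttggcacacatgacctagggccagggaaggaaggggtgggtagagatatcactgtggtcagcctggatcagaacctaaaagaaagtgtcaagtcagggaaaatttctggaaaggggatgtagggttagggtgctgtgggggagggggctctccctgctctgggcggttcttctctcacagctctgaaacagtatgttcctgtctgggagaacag
Ctss: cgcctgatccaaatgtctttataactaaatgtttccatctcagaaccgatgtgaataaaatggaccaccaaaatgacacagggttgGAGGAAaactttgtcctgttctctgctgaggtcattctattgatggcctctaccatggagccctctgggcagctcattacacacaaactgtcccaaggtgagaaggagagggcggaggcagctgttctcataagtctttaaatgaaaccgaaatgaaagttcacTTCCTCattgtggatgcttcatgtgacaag
Laptm5: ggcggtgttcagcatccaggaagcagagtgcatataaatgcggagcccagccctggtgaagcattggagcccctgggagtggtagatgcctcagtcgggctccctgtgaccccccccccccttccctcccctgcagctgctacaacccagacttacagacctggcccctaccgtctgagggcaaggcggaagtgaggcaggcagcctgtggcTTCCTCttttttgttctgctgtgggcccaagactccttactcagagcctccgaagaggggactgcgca
Cd53: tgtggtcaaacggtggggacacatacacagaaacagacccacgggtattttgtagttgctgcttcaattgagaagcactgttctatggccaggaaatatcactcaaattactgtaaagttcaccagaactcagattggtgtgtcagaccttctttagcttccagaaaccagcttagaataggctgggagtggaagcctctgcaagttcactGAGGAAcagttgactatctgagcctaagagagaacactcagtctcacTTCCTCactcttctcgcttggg

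RefSeq promoters were matched for 6 of the 10 genes, namely these 4, C1qb and Ptprc, and not for Emr1, Csf1r, C1qa and Tyrobp. Windows of 300 bases, from 250 before to 50 after the start, were searched on both strands. GAGGAA or TTCCTC occurred in all 6 genes and in 28.3% of all 32851 promoters of that length. The longer GAGGAAGT or ACTTCCTC, which contains the shorter one, occurred in C1qc, Ctss and Cd53 and in 3.20% of all promoters. It was absent from Laptm5, and from C1qb and Ptprc, which were also low in Phc1-KO (0.960% and 18.3% of the ESC mean). With the annotated start as position 0, the capitals begin at -193 in C1qc, at -164 and 0 in Ctss, at -38 in Laptm5 and at -39 and 8 in Cd53. In C1qb the match began at -30, and in Ptprc at -158 in 1 of 2 windows. The letters were present in the pair that was low in Phc1-KO and in the pair that was not. A match of letters is a description and does not show that a factor binds.

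Taken as a sum, RNA of the 10 genes was highest in ESC, lowest in NPC and intermediate in Phc1-KO. The summed level was 57.9 CPM in ESC 1 and 53.4 CPM in ESC 2. It was 2.76 and 2.53 CPM in NPC, from 42 and 39 reads, and 29.2 and 19.9 CPM in Phc1-KO. The ESC mean was 21.004-fold above NPC and 2.26-fold above Phc1-KO, or 2.79-fold without Phc1-KO 1. The Phc1-KO value hid a split between genes. Without Laptm5 and Cd53, a split made after the values were seen, the other 8 summed to 35.7 and 34.9 CPM in ESC, 1.38 and 1.56 CPM in NPC, and 3.77 and 2.71 CPM in Phc1-KO. Those 8 were 10.9-fold higher in ESC than in Phc1-KO. Laptm5 and Cd53 alone gave 22.1 and 18.4 CPM in ESC, 1.38 and 0.974 CPM in NPC, and 25.5 and 17.2 CPM in Phc1-KO. In RNA from whole cultures, fewer cells of a type and less RNA per cell cannot be told apart.

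**Figure D1:**
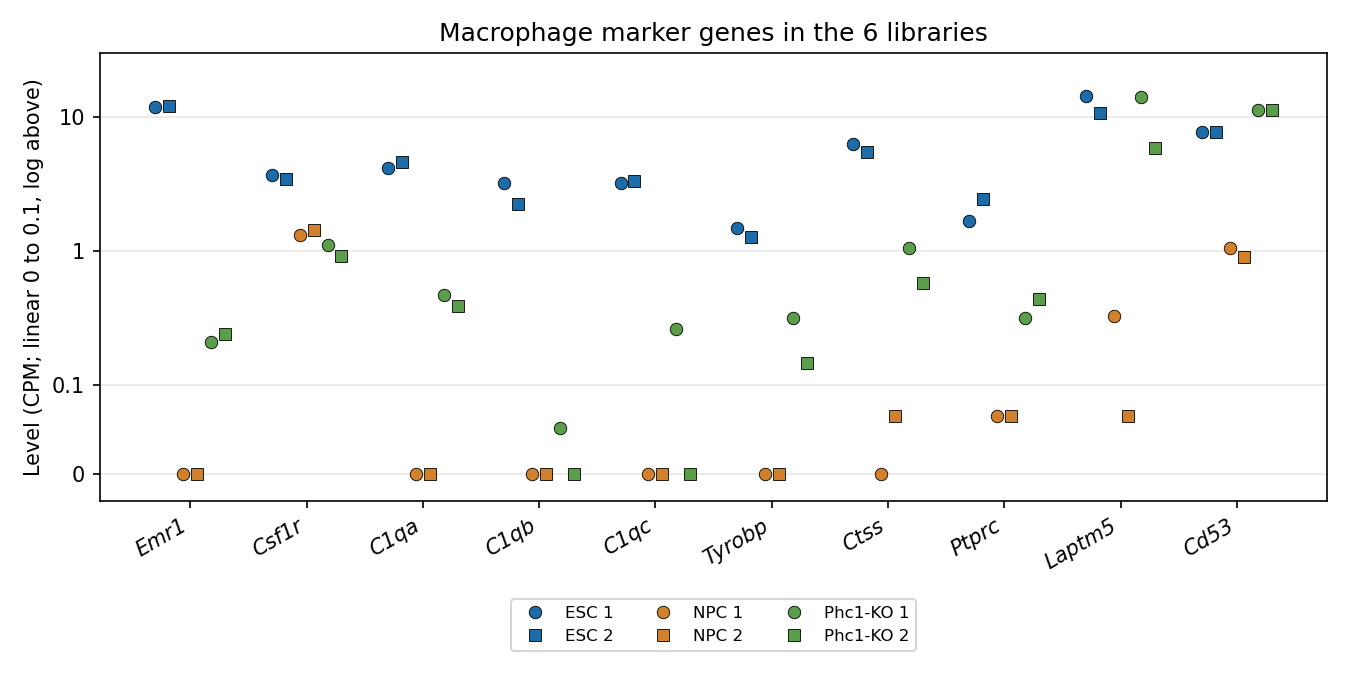
Level of each of the 10 genes in CPM, TMM-scaled, in each of the 6 libraries, with points for the libraries of each group. The ESC points lie from 1.28 CPM (Tyrobp) to 14.4 CPM (Laptm5), most NPC points are at or near 0, and in Phc1-KO Laptm5 and Cd53 lie far above the other 8.

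Emr1 (ENSMUSG00000004730; mm9 chromosome 17, 57498109 to 57622952, plus strand) encodes F4/80, the adhesion receptor used to identify mouse macrophages. It was at 11.97 and 12.05 CPM in ESC (194 and 198 reads), at 0 in both NPC libraries, and at 0.209 and 0.242 CPM in Phc1-KO (4 and 5 reads). The ESC libraries stood far above all 4 others, and the Phc1-KO libraries held a few reads where NPC held none. ESC was at least 122-fold above NPC, taking 3 reads over the group as the floor, and 53.2-fold above Phc1-KO. Emr1 made up 20.7% and 22.6% of the 10 genes' reads in ESC, against 0.717% and 1.21% in Phc1-KO.

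Csf1r (ENSMUSG00000024621; mm9 chromosome 18, 61265226 to 61291803, plus strand), the CSF1 receptor, had the highest NPC level of the 10 genes, ahead of Cd53. Its ESC levels were 3.70 and 3.47 CPM, with 1.32 and 1.43 CPM in NPC, and 1.10 and 0.919 CPM in Phc1-KO. Both NPC libraries lay above both Phc1-KO libraries, with ESC highest. The ESC mean was 2.61-fold above NPC and 3.55-fold above Phc1-KO. Csf1r gave 20 of the 42 reads of the 10 genes in NPC 1 and 22 of the 39 in NPC 2. Its annotated span shares 871 bases with Hmgxb3 on the opposite strand, which was at 58.6 to 76.8 CPM over the 6 libraries. Whether the counting used strand is not stated, so reads of the genes may not be separated there, and the part this had in the Csf1r level was not tested.

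The complement genes lie side by side on mm9 chromosome 4 within 18675 bases, in the order C1qb (ENSMUSG00000036905; 136436044 to 136442102), C1qc (ENSMUSG00000036896; 136445719 to 136448980) and C1qa (ENSMUSG00000036887; 136451832 to 136454718), all on the minus strand. C1qa was at 4.19 and 4.62 CPM in ESC, at 0 in both NPC libraries, and at 0.471 and 0.387 CPM in Phc1-KO. C1qb was at 3.21 and 2.25 CPM in ESC, at 0 in NPC, and at 0.0524 CPM (1 read) and 0 in Phc1-KO. C1qc was at 3.21 and 3.35 CPM in ESC, at 0 in NPC, and at 0.262 CPM (5 reads) and 0 in Phc1-KO. All 3 were present in both ESC libraries and without a read in NPC. Phc1-KO 2 kept C1qa reads but had none of the other chains. Together the trio had 340 reads in ESC, 0 in NPC and 23 in Phc1-KO, so ESC was at least 106-fold above NPC and 17.8-fold above Phc1-KO.

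Tyrobp (ENSMUSG00000030579; mm9 chromosome 7, 31198807 to 31202596, plus strand) encodes DAP12, the adaptor through which TREM2 and related receptors signal. It was at 1.48 and 1.28 CPM in ESC, at 0 in NPC, and at 0.314 and 0.145 CPM in Phc1-KO, from 6 and 3 reads. ESC was at least 14.1-fold above NPC and 6.004-fold above Phc1-KO. Ctss (ENSMUSG00000038642; mm9 chromosome 3, 95330708 to 95360325, plus strand) encodes cathepsin S, a lysosomal protease of antigen-presenting cells. It was at 6.29 and 5.47 CPM in ESC, at 0 and 0.0649 CPM in NPC, and at 1.05 and 0.581 CPM in Phc1-KO. Against 1 read in NPC the ratio was 180 (95% counting interval 31.9 to 7145), and against Phc1-KO it was 7.23. The groups did not overlap for either gene, and Phc1-KO lay between ESC and NPC for both. Ctss overlaps the pseudogene Hmgb1-ps5, which had 2 reads in all.

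The remaining 3 genes are expressed by leukocytes in general and not by macrophages alone. Ptprc (ENSMUSG00000026395; mm9 chromosome 1, 139959438 to 140071882, minus strand) encodes CD45, the phosphatase on the surface of leukocytes. It was at 1.67 and 2.43 CPM in ESC, at 0.0658 and 0.0649 CPM in NPC (1 read each), and at 0.314 and 0.435 CPM in Phc1-KO. ESC was 5.47-fold above Phc1-KO, and its ratio to NPC was 31.4 (95% counting interval 8.36 to 265). CD45 RNA was thus low in Phc1-KO, unlike the pair described next.

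Laptm5 (ENSMUSG00000028581; mm9 chromosome 4, 130469040 to 130492056, plus strand) encodes a lysosomal membrane protein of blood cells. It was at 14.4 and 10.7 CPM in ESC, at 0.329 and 0.0649 CPM in NPC, and at 14.2 and 5.90 CPM in Phc1-KO. Phc1-KO 1 lay between the ESC libraries and Phc1-KO 2 below both, so the groups overlapped. As a share of the ESC mean they were at 113% and 47.1%. The fitted log2 difference from ESC was -0.32 (SE 0.45), and it was -1.08 without Phc1-KO 1 and 0.18 without Phc1-KO 2, so its direction turned with the library left out. Against NPC the ESC mean was 63.7-fold higher.

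Cd53 (ENSMUSG00000040747; mm9 chromosome 3, 106561779 to 106593067, minus strand) encodes a tetraspanin of leukocytes. It was at 7.77 and 7.73 CPM in ESC, at 1.05 and 0.909 CPM in NPC, and at 11.3 CPM in both Phc1-KO libraries (215 and 234 reads). It was the member that was higher in both Phc1-KO libraries than in both ESC libraries, by 1.46-fold (log2 difference 0.54, SE 0.21). ESC was 7.90-fold above NPC, and with Csf1r it supplied most reads of the 10 genes in NPC (16 and 14). Laptm5 and Cd53 made up 48.6% and 38.5% of the 10 genes' reads in Phc1-KO 1 and 29.6% and 56.8% in Phc1-KO 2. In ESC 1 those shares were 24.8% and 13.4%, and in ESC 2 they were 20.1% and 14.5%.

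As counts, all 10 genes were lower in both NPC libraries than in both ESC libraries, as were 43.4% of all 17489 genes tested. In Phc1-KO 8 were lower in both libraries than in both ESC libraries, against 34.2% of all genes, and 1 was higher, against 32.6%. In both Phc1-KO libraries 7 were higher than in both NPC libraries, against 40.9% of all genes. The levels chose the genes, so nothing is read from these counts. Each comparison with ESC uses the same ESC libraries, so a low level in NPC and in Phc1-KO are not separate observations. In NPC 5 of the 10 had no read, and 8 were below 1 CPM in both libraries. A single read was worth 0.0484 to 0.0658 CPM, depending on the library, so 0 reads over a group of 2 allows a level of up to 0.0980 CPM in NPC.

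**Figure D2:**
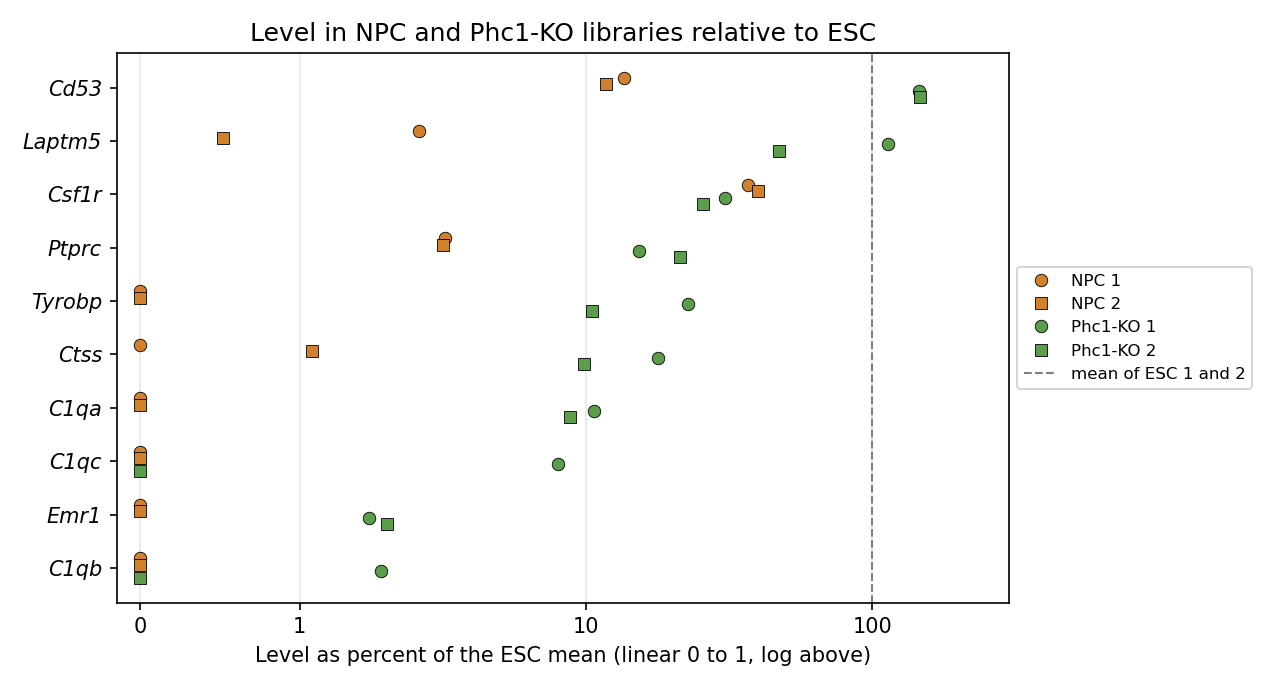
Level of each gene in each NPC and Phc1-KO library as a percent of the ESC mean, with the genes ordered by their Phc1-KO mean. In Phc1-KO the genes run from C1qb (1.92% and 0%) to Cd53 (145% and 146%), and the Laptm5 points (113% and 47.1%) lie farthest apart.

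Levels in Phc1-KO ran over a wide range relative to ESC. As a percent of the ESC mean, the Phc1-KO mean was 0.960% for C1qb, 1.88% for Emr1, 3.996% for C1qc and 9.73% for C1qa. It was 13.8% for Ctss, 16.7% for Tyrobp, 18.3% for Ptprc and 28.2% for Csf1r. Laptm5 was at 80.1% and Cd53 at 146%. Emr1 lay below C1qa in each Phc1-KO library, at 1.74% and 2.01% against 10.7% and 8.78%. The first 4 of this order, C1qb, Emr1, C1qc and C1qa, rest on 1, 9, 5 and 17 reads over both Phc1-KO libraries.

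Per kilobase of exon, which allows levels to be compared between genes, the ESC order began with Ctss (4.33 ± 0.425 CPM per kb, SD, n = 2) and C1qa (4.24 ± 0.292 CPM per kb). Emr1 (3.70 ± 0.0172 CPM per kb), Laptm5 (3.31 ± 0.684 CPM per kb), Cd53 (2.77 ± 0.0116 CPM per kb), C1qb (2.51 ± 0.622 CPM per kb) and Tyrobp (2.44 ± 0.254 CPM per kb) followed. C1qc was at 1.70 ± 0.0507 CPM per kb, Csf1r at 0.685 ± 0.0316 CPM per kb and Ptprc at 0.352 ± 0.0934 CPM per kb. Neighbours whose libraries overlapped were Ctss with C1qa, Emr1 with Laptm5, Cd53 with C1qb, and C1qb with Tyrobp. In Phc1-KO the order was led by Cd53 (4.03 CPM per kb) and Laptm5 (2.65 CPM per kb), with Ctss next at 0.599 CPM per kb and Emr1 at 0.0695 CPM per kb.

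Other macrophage genes, which did not define the set, were counted to see how widely the pattern held. Of 82 genes in 5 lists, 79 were matched (Tfec, Syk and Pirb are not used here) and 62 were tested, the other 17 having at most 12 reads in any library. These lists were written with earlier results of these libraries known. Tests were by edgeR (quasi-likelihood F test, Benjamini-Hochberg adjustment over all genes tested, threshold 0.05).

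In NPC 48 of the 62 were lower than in ESC and 5 higher, 85.5% in all, against 61.3% of all genes tested (30.9% lower and 30.4% higher). The median log2 fold change was -3.41, or -3.32 with genes at 0 in NPC set to their bound, against -0.01 over all genes. In Phc1-KO 20 were lower than in ESC and 2 higher, 35.5% in all, against 10.7% of all genes (5.75% lower and 4.91% higher). The median log2 fold change there was -0.74, against 0.00 over all genes. In Phc1-KO against NPC, 37 were higher and 8 lower, 72.6% in all, against 64.9% of all genes (32.3% higher and 32.7% lower). The Phc1-KO count depended on single libraries. It was 3 without ESC 1, 3 without ESC 2, 11 without Phc1-KO 1 and 0 of 66 tested without Phc1-KO 2, where 28 had an unadjusted p under 0.05 and 24 of those were lower. It was 4 with the ESC pair counted as 1 library, namely Fcgr3, Clec4n, Lyz2 and Lcp1, and 15 by DESeq2. The 22 genes kept their sign wherever they were tested.

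**Figure D3:**
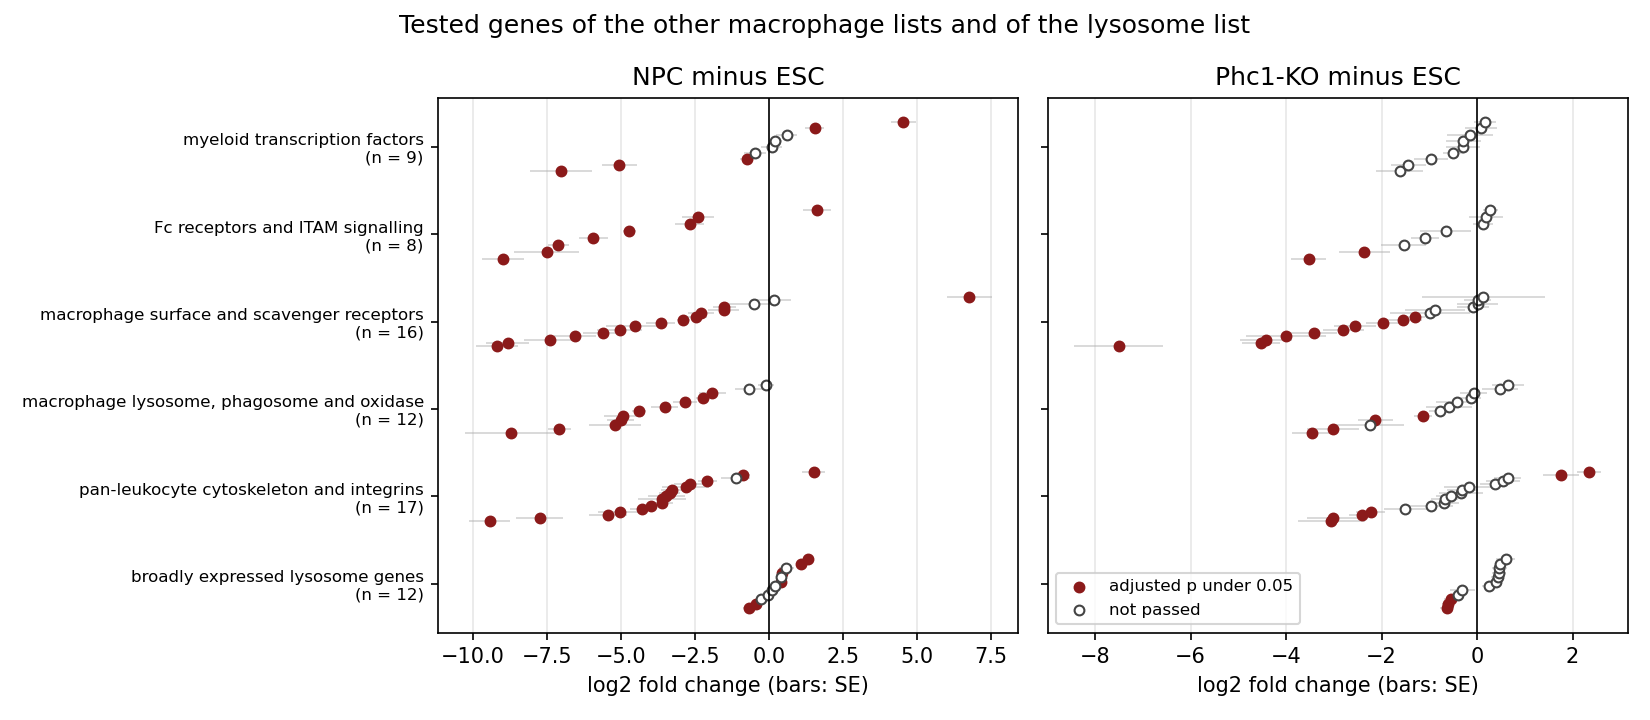
Log2 fold change of each tested gene of the 5 lists of other macrophage genes and of the broadly expressed lysosome genes, in NPC and in Phc1-KO against ESC, with 1 point per gene and filled points for those that passed edgeR; bars are SE. In NPC most genes of 4 lists lie far below 0 and the transcription factors lie on both sides; in Phc1-KO the surface and scavenger receptors have the lowest median, -1.77.

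Macrophage surface and scavenger receptors had the most calls in Phc1-KO, with 10 of 16 lower and 0 higher (median log2 fold change -1.77). Of all genes tested 5.75% were lower there and 4.91% higher. Clec4n, which encodes the C-type lectin dectin-2, was at 3.82 and 4.62 CPM in ESC, 0 in NPC, and 0.157 and 0.194 CPM in Phc1-KO. It fell by a log2 fold change of -4.53 in Phc1-KO (SE 0.40, edgeR adjusted p = 0.00522) and was at least 43.1-fold lower in NPC. Marco, a scavenger receptor, had no read in Phc1-KO and was at least 17.5-fold lower there. Msr1, the class A scavenger receptor, fell by a log2 fold change of -3.42 (SE 0.49) in Phc1-KO, and its ratio of ESC to NPC was 105 (95% counting interval 28.6 to 868). The mannose receptor Mrc1 fell less, by -1.30 (SE 0.20) in Phc1-KO and -2.89 (SE 0.23) in NPC. In NPC 13 of the 16 were lower and 1 higher, against 30.9% and 30.4% of all genes tested. The Phc1-KO count of 10 was 1 without either ESC library, 4 without Phc1-KO 1, 0 without Phc1-KO 2 (10 with an unadjusted p under 0.05) and 5 by DESeq2. Ms4a7 was at least 33.7-fold lower in NPC, yet at 3.51 and 3.14 CPM in Phc1-KO it lay within 0.01 of ESC on the log2 scale and did not pass. The gene that rose in NPC was Cd163, the haemoglobin scavenger receptor, from 0 and 0.182 CPM (0 and 3 reads) to 13.9 and 7.66 CPM (log2 fold change 6.77, SE 0.75).

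Fc receptors and genes of signalling through the ITAM motif, the route that Tyrobp serves, gave 7 lower and 1 higher in NPC, of 8 tested. Of all genes tested 30.9% were lower there and 30.4% higher. Fcgr2b was at least 37.8-fold lower and Trem2 at least 13.4-fold. Fcer1g, the Fc receptor gamma chain, fell by -2.40 (SE 0.54), a call lost without ESC 1 (-2.20). Nfam1, which rose by 1.62 (SE 0.47), was not called without ESC 2 (1.18), without NPC 2 (1.05) or without either Phc1-KO library (1.60). Fcgr1 had too few reads to be tested. In Phc1-KO 2 of the 8 were lower, against 5.75% of all genes tested. Fcgr3, a low-affinity IgG receptor, was at 4.07 and 4.81 CPM in ESC against 0.471 and 0.290 CPM in Phc1-KO, a log2 fold change of -3.53 (SE 0.36, edgeR adjusted p = 0.00478). Trem2 fell by -2.36 (SE 0.53).

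Among genes of the macrophage lysosome, phagosome and oxidase, 10 of 12 were lower in NPC and 4 in Phc1-KO, with 0 higher in either. The shares lower over all genes tested were 30.9% in NPC and 5.75% in Phc1-KO. Lyz2, the lysozyme of macrophages, was at 100.5 and 102 CPM in ESC, 1.91 and 4.35 CPM in NPC, and 12.3 and 6.10 CPM in Phc1-KO. Its log2 fold change was -5.01 (SE 0.46) in NPC and -3.46 (SE 0.41, edgeR adjusted p = 0.00716) in Phc1-KO. Also lower in Phc1-KO were Mpeg1, a pore-forming protein, at -3.02 (SE 0.54), Ncf1, an oxidase subunit, at -2.13 (SE 0.36) and Ctsc, cathepsin C, at -1.14 (SE 0.19). Mpeg1 did not pass in NPC (-0.66, SE 0.48). It was at 7.89 and 2.79 CPM there against 7.71 and 9.19 CPM in ESC, so the groups overlapped. The largest decreases in NPC were in Cybb, Gpnmb and Pld4. Cybb, the oxidase's catalytic subunit, was at least 31.2-fold lower. Gpnmb was lower by a ratio of 150 (95% counting interval 41.2 to 1244). Pld4, with 0 and 1 reads in NPC, was lower by a ratio of 45.0 (95% counting interval 7.70 to 1814). Cd68, a late endosome protein, fell in NPC by -2.22 (SE 0.24) and did not pass in Phc1-KO (-0.12). Of 12 lysosome genes that most cells express, 4 rose and 2 fell in NPC, near the shares of all genes tested (30.4% higher and 30.9% lower). Psap rose there by 1.30 and Lamp2 by 1.09, whereas Ctsl changed by -0.68, a call lost without ESC 1 (-0.72) or ESC 2 (-0.68). In Phc1-KO 3 of these 12 fell by edgeR and 0 rose, against 5.75% and 4.91% of all genes tested. The median log2 fold change of the 12 was 0.33, however, and their summed level was 2166 to 2312 CPM against 1785 to 1802 CPM in ESC. Among the 3 were Hexa at -0.61 and Lgmn at -0.55, and all 3 calls were lost when any 1 ESC or Phc1-KO library was left out. By DESeq2 6 of the 12 were higher and 3 lower in Phc1-KO. Ctsb and Ctsd, cathepsins B and D, did not pass edgeR in either comparison.

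Genes shared by many leukocytes gave 15 lower and 1 higher in NPC, of 17 tested, and 4 lower and 2 higher in Phc1-KO. Over all genes tested the shares were 30.9% lower and 30.4% higher in NPC, and 5.75% and 4.91% in Phc1-KO. Itgam, the integrin chain CD11b, was at 5.18 and 4.93 CPM in ESC, 0 in NPC, and 3.56 and 2.76 CPM in Phc1-KO. It was at least 51.6-fold lower in NPC and did not pass in Phc1-KO (log2 fold change -0.68). Its partner Itgb2 fell in both, by -3.63 (SE 0.38) and -2.23 (SE 0.31). Vav1, a signalling factor, was at least 15.9-fold lower in NPC, and the integrin chain Itgal was lower there by a ratio of 48.3 (95% counting interval 13.03 to 404). In Phc1-KO the actin bundler Lcp1 fell by -2.42 (SE 0.26, edgeR adjusted p = 0.00560), Hcls1 by -3.02 (SE 0.55) and Cd52 by -3.05 (SE 0.70). The myosin gene Myo1f went from 3.33 and 3.16 CPM in ESC to 15.6 and 17.5 CPM in Phc1-KO, a log2 fold change of 2.35 (SE 0.25, edgeR adjusted p = 0.00533). Arhgdib, a regulator of the cytoskeleton, rose by 1.76 (SE 0.38) in Phc1-KO and by 1.51 (SE 0.38) in NPC, where it was not called without ESC 1 (1.35). In Phc1-KO the call of Arhgdib was lost when any 1 ESC or Phc1-KO library was left out (1.39 to 2.06), and that of Myo1f without ESC 1 (2.39), ESC 2 (2.31) or Phc1-KO 2 (2.26). Without any 1 of those 3 libraries no gene of this list passed edgeR in either direction, with 6 to 8 at an unadjusted p under 0.05; by DESeq2 2 were higher and 2 lower.

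Of 9 transcription factors of the myeloid lineage tested, 3 were lower and 2 higher in NPC. These counts are not far from the shares of all genes tested, 30.9% lower and 30.4% higher. In Phc1-KO 0 of the 9 passed edgeR, against 10.7% of all genes. There 3 had an unadjusted p under 0.05 and 1 passed DESeq2. Sfpi1, the annotation's name for Spi1, encodes PU.1 itself. It was at 0.925 and 0.973 CPM in ESC, 0 in NPC, and 0.419 and 0.194 CPM in Phc1-KO. It was at least 9.69-fold lower in NPC and did not pass in Phc1-KO (log2 fold change -1.62). Ikzf1, a factor of blood cells, was lower in NPC by a ratio of 37.0 (95% counting interval 9.92 to 311). Cebpb changed by -0.75 (SE 0.24), a call lost without ESC 1 (-0.55), ESC 2 (-0.96) or NPC 1 (-0.64). Cebpa rose by 1.55 (SE 0.32), a call lost without ESC 2 (1.30). Irf8 did not pass in either comparison (0.09 in NPC and -1.44 in Phc1-KO).

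The ligands of the Csf1r receptor did not follow it. Csf1 was at 32.0 and 32.6 CPM in ESC, 66.6 and 86.9 CPM in NPC, and 144 and 70.3 CPM in Phc1-KO, and it rose in NPC by 1.25 (SE 0.32) and in Phc1-KO by 1.73 (SE 0.33, edgeR adjusted p = 0.0235). The NPC call was lost without ESC 1 (1.22), ESC 2 (1.25) or NPC 2 (1.05), and the Phc1-KO call without ESC 1 (1.72) or ESC 2 (1.74). Il34 rose in NPC by 3.55 (SE 0.33) and did not pass in Phc1-KO (1.04).

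Read against the Phc1-KO order above, the other macrophage genes also spread widely. Their Phc1-KO mean had a median of 59.8% of the ESC mean. In 17 of the 62 it was under 25%, against 2.12% of all genes tested, and in 15 it was at or over 100%, against 50.2%. Low and unreduced levels in Phc1-KO thus both occurred among these genes, as they did among the 10.

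Markers of other blood cells were partly at 0 in ESC and partly at levels like those of the 10 genes. All 5 mast cell markers had no read there, nor did 4 of 5 natural killer cell markers (Ncr1, Klrb1c, Nkg7 and Gzma), nor S100a8, Ly6g and Elane of neutrophils, nor Itgax, Cd209a and H2-Aa of dendritic cells. Summed neutrophil markers were at 0.365 to 0.555 CPM in ESC, 0.460 to 0.714 CPM in NPC and 1.10 to 1.84 CPM in Phc1-KO. B cell markers summed to 2.31 to 2.78 CPM in ESC, 1.91 to 3.96 CPM in NPC and 2.83 to 3.05 CPM in Phc1-KO. T cell markers summed to 24.6 to 26.7 CPM in ESC, 1.91 to 2.79 CPM in NPC and 23.04 to 29.9 CPM in Phc1-KO, but these reads were mostly Lck, at 22.4 and 20.6 CPM in ESC. Cd3e was at 0.555 and 0.304 CPM in ESC, and Cd3d and Cd3g were at 0 there. Cd247, also in the T cell list, was at 3.21 and 2.62 CPM in ESC. Dendritic cell markers summed to 15.975 to 18.6 CPM in ESC, 74.5 to 132 CPM in NPC and 13.01 to 14.8 CPM in Phc1-KO, of which Zbtb46 gave 10.2 and 12.5 CPM in ESC. Of the 4 tested, 1 was higher and 3 lower in NPC, against 30.4% and 30.9% of all genes tested. The median log2 fold change of the 4 was -1.55, so the higher NPC sum did not hold for most of them. Erythroid markers summed to 11.9 to 12.8 CPM in ESC, 13.3 to 14.2 CPM in NPC and 11.5 to 14.04 CPM in Phc1-KO, with the globin genes Hbb-b1 and Hba-a1 at 0 in ESC. Megakaryocyte markers summed to 12.95 to 14.97 CPM in ESC, 19.5 to 24.03 CPM in NPC and 10.01 to 10.2 CPM in Phc1-KO. The platelet factor Pf4, listed with megakaryocytes, was at 3.64 and 3.35 CPM in ESC, 4.08 and 2.34 CPM in NPC, and 0.105 and 0.242 CPM in Phc1-KO.

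Markers of the feeder fibroblasts, and of microglia, the brain's own macrophages, had other patterns than the 10 genes. The 18 fibroblast feeder markers summed to 838 to 852 CPM in ESC, 9126 to 13914 CPM in NPC and 1844 to 1992 CPM in Phc1-KO. As a sum they were lowest in ESC. By gene, 13 of the 18 were higher and 2 lower in NPC, against 30.4% and 30.9% of all genes tested. In Phc1-KO the rises were led by Postn at 5.26 and Dcn at 3.68, while Col1a1 (0.13) and Col1a2 (0.62) did not pass. There 9 of the 18 were higher and 0 lower, against 4.91% and 5.75% of all genes tested. That count was 4 without ESC 1, ESC 2 or Phc1-KO 2, and Postn was not called without Phc1-KO 2 (5.14). The 6 microglia markers summed to 123 to 127 CPM in ESC, 95.5 to 98.6 CPM in NPC and 162 to 211 CPM in Phc1-KO. Most of that sum was Sall1, at 118 and 114 CPM in ESC, 57.7 and 30.5 CPM in NPC, and 198 and 149 CPM in Phc1-KO. Without it the other 5 summed to 8.82 and 8.88 CPM in ESC, 40.9 and 65.0 CPM in NPC, and 12.7 and 12.5 CPM in Phc1-KO, so the direction in NPC turned. Of the 5 tested, 4 were higher and 1 lower in NPC, against 30.4% and 30.9% of all genes tested. Among those 5, P2ry12 was at 0.617 and 0.547 CPM in ESC against 2.24 and 2.47 CPM in NPC. Tmem119 was at 4.01 and 4.68 CPM in ESC against 6.84 and 23.9 CPM in NPC. The part of the feeder layer, or of any other cell type, in the macrophage reads was not tested.

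**Figure D4:**
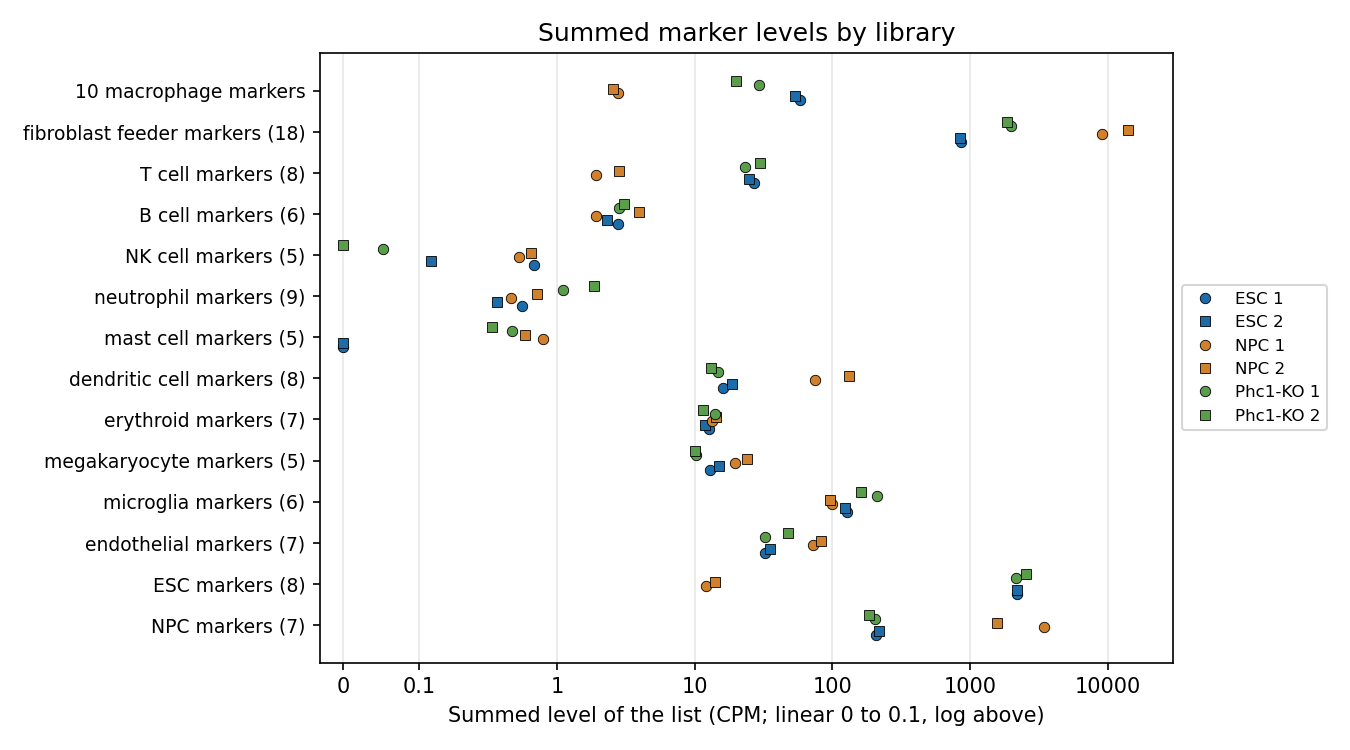
Summed CPM of the marker lists in each library, on an axis that is log above 0.1 CPM and linear below it, with the 10 macrophage genes beside lists for other cell types. The 10 genes stand at 53.4 to 57.9 CPM in ESC against 2.53 to 2.76 CPM in NPC. As a sum, the fibroblast feeder markers stand at 838 to 852 CPM in ESC and 9126 to 13914 CPM in NPC.

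The genes whose profile over the 6 libraries lay nearest to the median profile of the 10 were looked for among 13127 other tested genes with a mean of at least 1 CPM. Nearness was the Euclidean distance between centred log2(CPM + 0.5) values. They were Nod2 (distance 0.395), Pou2f3 (0.448), Oasl2 (0.475), Pdk4 (0.513), Fcgr3 (0.521), Ifit1 (0.540), Pdzk1 (0.574), Pstpip2 (0.617), Tns4 (0.621) and Nkx6-3 (0.646). Of these Fcgr3 belongs to the macrophage lists above. The 10 genes themselves lay at 0.521 (C1qa) to 3.21 (Laptm5) from that median, with Emr1 at 2.18 and Csf1r at 1.77.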

How the data were processed

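Total RNA of 6 libraries was depleted of ribosomal RNA and read as 50-base single ends, per the labels' protocols. The authors deposited raw counts for each Ensembl gene, made with STAR and HTSeq on mm9 per the submitters' processing notes. Their versions, the annotation and the use of strand were not given in the sources used here. Tallies in 5 last lines, holding 68.5% to 73.8% of counted entries, those assigned to no gene, were left out. GENCODE M1, an mm9 annotation, named 37205 of 37620 genes. The reads carry no molecular identifiers, so intervals and floors cover counting error only.

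From the deposited counts, CPM were computed with TMM scaling and given as mean ± SD or per library. Tests of difference used edgeR 4.0.16 (quasi-likelihood, limma 3.58.1, R 4.3.3) over all 6 libraries together, with 3 residual degrees of freedom, on 17489 genes that passed filterByExpr (minimum count 10, minimum total 15), with Benjamini-Hochberg adjustment and a threshold of 0.05. Log2 fold changes are the fit's. The SE is the size of the change divided by the square root of F. Where a group had 0 reads, the fold is a bound against 3 reads over the group, and at 1 to 3 reads it is a ratio with an exact 95% interval. Promoter sequences are from RefSeq on GRCm38.p6.

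The members, lists and tests were chosen with earlier results of these data known. Named genes were the members, Phc1, the first 2 of each list, the 3 largest changes per direction that passed in the macrophage lists, and the 10 nearest profiles; others were named after their values were seen. Some genes that met the rule are not reported here. Alternatives were other scalings, filters and tools (DESeq2 1.42.0, limma-voom), fits of 2 groups, a replicate block, the ESC pair as 1 library and each library left out. The scripts were tested on simulated data. Figures were drawn with matplotlib 3.10.9.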

Additional observations from a re-analysis of the deposited data

How the results depend on the processing

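The count of all genes called between Phc1-KO and ESC was 1864; it was 3899 with only the 2 groups compared, 145 with the ESC libraries counted as 1, and 92 to 3715 with each library left out (112 without ESC 1, 92 without ESC 2, 1173 without Phc1-KO 1, 138 without Phc1-KO 2). Of other macrophage genes 22 were called; the count was 4 with the ESC libraries counted as 1 and 0 to 28 with each library left out. The low value was without Phc1-KO 2, where 28 genes had an unadjusted p under 0.05. The cause was not tested. In NPC against ESC the count of 53 was 46 to 56 with a library left out, and in Phc1-KO against NPC the count of 45 was 33 to 41. The summed level of the 10 genes in ESC over NPC was 20.1 to 21.96 with a library left out. In ESC over Phc1-KO it was 1.90 to 2.79, with 2.79 without Phc1-KO 1. No value reversed its direction among called genes. Replicate numbers are shared only as numbers: same-numbered libraries' deviations had correlations of -0.0207 to 0.0202. With a replicate block, other macrophage genes called were 21 in Phc1-KO and 53 in NPC. With 1 library of a group left out, the other is assumed to vary like the rest. Genes at a few reads are limited by depth: 3 reads over a group were 0.0754 to 0.0980 CPM.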
